A study of Mus musculus with 4 samples.

Results

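Germ cell and pluripotency genes were followed in mouse mesenchymal stem cells of adult bone marrow that were made to carry extra NR6A1. The 49 genes were picked by symbol from the 21881 symbols of the deposited table. They comprise 9 oocyte genes, 7 spermatid genes, 14 genes of germ cells and meiosis and 19 pluripotency genes. Most were listed as known germ line or embryonic genes, among them known targets of NR6A1. Mos and Oog1 were added because their levels had already been seen to be lower with NR6A1. The differences between viruses in these 49 genes are therefore descriptions, given with no test.

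Each group held 2 libraries of polyadenylated RNA, 1 from clone 12 and 1 from clone 6. The NR6A1 libraries came from cells infected with a pMMP-puro retrovirus for Flag-HA-tagged NR6A1, and the vector libraries from cells infected with the empty virus. Both lines are immortalised, C57BL/6 and Dicer f/f, with floxed Dicer left intact and treated as wild type. Each line is a single clone and gave 1 library per virus, so p-values measure only the spread between these libraries.

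The protein NR6A1, or germ cell nuclear factor, has no known ligand and mostly represses transcription in the early embryo and in developing germ cells. It binds direct repeats of the half-site AGGTCA with no spacing between them. In the mouse embryo it shuts down Pou5f1 as pluripotency ends, and in mouse germ cells it has been linked to oocyte genes such as Gdf9 and Bmp15 and to the protamine genes. Adult fibroblast-like cells normally keep germ line and pluripotency genes silent, largely through DNA methylation and repressive chromatin.

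Nr6a1 itself stood at 598 and 783 FPKM in the NR6A1 libraries of clone 12 and clone 6, against 2.80 and 4.18 FPKM in their vector counterparts (FPKM, fragments per kilobase of transcript scaled to library size). These values may hold viral and endogenous transcripts, which were not separated. The depths, inferred from the steps between low values, were 20.4 to 24.2 M mapped reads per library. Of 16 mesenchymal and fibroblast markers, 13 averaged at least 1 FPKM, with summed levels of 8031 to 9088 FPKM in the NR6A1 libraries and 7584 to 9165 FPKM in the vector libraries. The markers Thy1, Lum and Dcn fell short of it, with highest values of 0.0297, 0.00229 and 0.431 FPKM. The 7 embryonic stem cell markers summed to 0.376 to 1.08 FPKM with NR6A1 and 0.629 to 1.53 FPKM with vector, and the endothelial markers to at most 0.214 FPKM in a library. Of the 8 blood markers in the table, Cd14 alone averaged at least 1 FPKM. Among 10 markers of gonadal somatic cells, Sox9 and Star did so, while Cyp17a1 and Fshr were at 0 in all libraries.

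Promoter sequences show which members carry the letters of the NR6A1 half-site. RefSeq promoters of build GRCm38.p6 matched 33 of the 49 genes by symbol, Mos not among them, as 41 promoters. With fewer than 80% matched, the counts below are not compared with those over all promoters. The 250 bases before the start were searched on both strands for exact letters, with no mismatch allowed. An exact direct repeat of AGGTCA with no spacing was in none of the 41 and in 2 of 32851 promoters of all genes. Repeats with a changed base were not searched for, so their absence is not shown. The extended half-site TCAAGGTCA was in the Prm2 promoter alone among them, and in 0.387% of all promoters. The half-site AGGTCA, which lies inside both longer motifs, was in 10 of the 41 promoters, those of 9 genes, and in 14.02% of all promoters. With AGGTCA, or TGACCT where it lies on the opposite strand, in capitals, 4 windows are given: Oog1 and Nanog, which were lower with NR6A1 in both lines, and Pou5f1 and Prm2, which are known NR6A1 targets.
Oog1, chr12:87602415-87602664, plus strand: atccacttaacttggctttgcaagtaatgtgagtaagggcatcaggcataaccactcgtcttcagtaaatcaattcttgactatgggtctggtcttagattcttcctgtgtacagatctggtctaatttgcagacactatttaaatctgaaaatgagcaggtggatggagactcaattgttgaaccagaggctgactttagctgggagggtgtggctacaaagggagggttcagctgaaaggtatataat
Nanog, chr6:122707239-122707488, plus strand: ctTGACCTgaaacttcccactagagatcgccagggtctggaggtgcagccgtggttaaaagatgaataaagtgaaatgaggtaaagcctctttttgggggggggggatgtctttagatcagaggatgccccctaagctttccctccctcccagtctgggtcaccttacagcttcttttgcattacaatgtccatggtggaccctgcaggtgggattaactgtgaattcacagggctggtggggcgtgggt
Pou5f1, chr17:35505782-35506031, plus strand: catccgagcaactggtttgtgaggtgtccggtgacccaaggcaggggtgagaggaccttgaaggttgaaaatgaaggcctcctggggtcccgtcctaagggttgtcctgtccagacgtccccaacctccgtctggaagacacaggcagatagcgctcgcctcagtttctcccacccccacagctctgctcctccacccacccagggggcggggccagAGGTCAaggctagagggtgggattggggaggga
Prm2, chr16:10792106-10792355, minus strand: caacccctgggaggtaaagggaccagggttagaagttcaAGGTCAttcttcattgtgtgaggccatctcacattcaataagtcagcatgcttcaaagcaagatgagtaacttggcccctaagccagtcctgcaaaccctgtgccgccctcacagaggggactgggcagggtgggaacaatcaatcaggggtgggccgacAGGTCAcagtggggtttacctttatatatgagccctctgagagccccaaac
Counted from the start after each window shown, the half-site began at position -33 in Pou5f1 and at -211 and -51 in Prm2, on the gene strand. In Nanog it began at -248, on the opposite strand. A further RefSeq promoter of Pou5f1 and one of Nanog, not shown, held no half-site. A match is a match of letters and no evidence of binding, and the Oog1 window holds none.

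Most of these genes were silent or close to it under both viruses. Above 0 were 26 and 25 of the 49 in the NR6A1 libraries of clone 12 and clone 6, against 29 and 23 in their vector counterparts. The number above 0 thus overlapped between viruses. In all 4 libraries 10 genes were listed at 0 (20.4%, against 18.3% of all symbols), and 4 genes averaged at least 1 FPKM (8.16%, against 51.9% of all symbols). These 4 were Mos, Oog1, Klf5 and Dnmt3b.

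**Figure D1:**
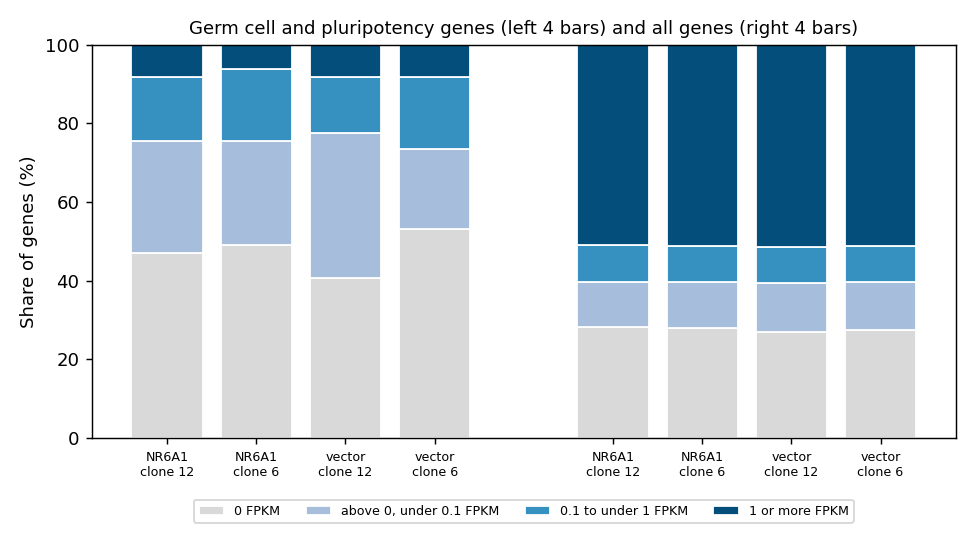
Share of genes, in percent, in 4 ranges of FPKM, for the 49 germ cell and pluripotency genes (left bars) and all 21881 symbols (right bars), 1 bar per library. From 40.8% to 53.1% of the 49 were at 0 in a library, and 6.12% to 8.16% reached 1 FPKM, against 50.9% to 51.3% of all symbols.

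The 10 genes at 0 in every library were Prm2 and Tnp1, which package the DNA of sperm; Stra8, which starts meiosis; Mael and Tdrd1 of the piRNA pathway, which silences transposons; Hormad1 of the meiotic chromosome axis; the egg coat genes Zp1 and Zp2; and Tdgf1 and Nodal, a co-receptor and a ligand of embryonic Nodal signalling. A further 22 genes were above 0 but never reached 0.1 FPKM. Over these 32 genes, 47 of 128 values were above 0. At the inferred depths, 39 of those 47 stood for under 1.5 reads and the highest for an estimated 4.26 reads (Ddx4, the germ cell RNA helicase, in the vector library of clone 12). Decreases in these 32 genes, and increases that stayed under 0.1 FPKM, were not detectable at this depth. By the rule that grouped them, none rose to 0.1 FPKM with NR6A1. For the short transcript of Tnp1, 1 read alone would be worth 0.182 to 0.216 FPKM.

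Pou5f1, the core pluripotency factor, was at 0 in both NR6A1 libraries, against 0.00146 FPKM in the vector library of clone 12 and 0.0358 FPKM in that of clone 6. The value of 0.0358 FPKM stood for an estimated 0.999 reads. Sox2, its partner, stood at 0.0475 and 0 FPKM in the NR6A1 libraries of clone 12 and clone 6, against 0.0352 and 0.0152 FPKM in the vector libraries. Both genes sat at a level of 0 to 1.79 estimated reads. Sall4, Prdm14, Utf1, Zfp42, Gdf3, Fgf4, Dnmt3l and Dppa4, all genes of the pluripotent state or of early germ cells, stayed under 0.1 FPKM in every library. Bmp15, the oocyte growth factor, reached at most 0.0152 FPKM.

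**Figure D2:**
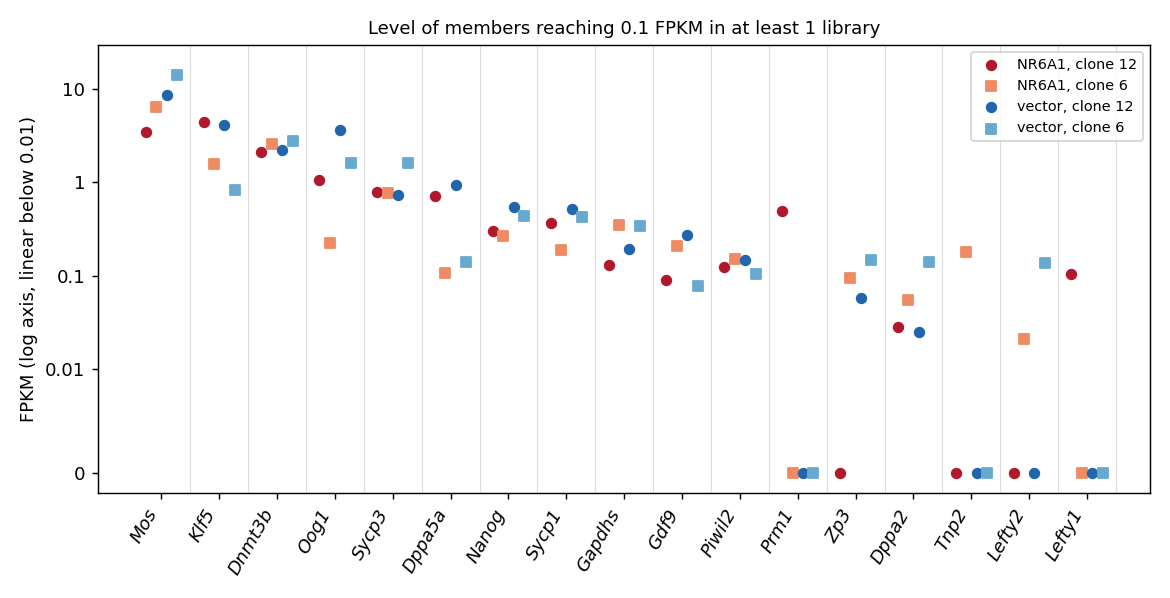
FPKM of the 17 genes that reached 0.1 FPKM in a library, on a log axis that is linear below 0.01, with 1 point per library (circles clone 12, squares clone 6; red NR6A1, blue vector). Mos is the highest at 3.47 to 14.1 FPKM, and for Mos, Oog1, Nanog and Sycp1 both red points lie below both blue ones.

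Mos was the most abundant of the oocyte genes. It encodes the kinase that starts the MAP kinase cascade of egg maturation and holds the vertebrate egg at the second meiotic metaphase. Mos stood at 3.47 and 6.47 FPKM in the NR6A1 libraries of clone 12 and clone 6, against 8.66 and 14.1 FPKM in their vector counterparts. The groups did not overlap. These values were worth an estimated 87.7 and 169 reads with NR6A1, and 246 and 423 reads with vector. Mos averaged 4.97 ± 2.12 FPKM with NR6A1 and 11.4 ± 3.85 FPKM with vector (SD, n = 2 each). The NR6A1 level was 0.401 of the vector level in clone 12 and 0.459 of it in clone 6. On the scale of log2(FPKM + 1), which holds for all log2 values given here and understates the change of low genes, the changes were -1.11 and -1.02. No gene of the table lies within 1000 bases of Mos in the GENCODE annotation, and no transcript of another gene aligned to it with at least 90% identity over 200 bases.

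Oog1 encodes oogenesin 1, a leucine-rich repeat protein of mouse oocytes. It stood at 1.06 and 0.227 FPKM in the NR6A1 libraries of clone 12 and clone 6, against 3.65 and 1.61 FPKM in their vector counterparts. Both NR6A1 values lay below both vector values, and clone 12 was the higher line under each virus. Taken at its longest annotated transcript, this was an estimated 48.6 and 10.7 reads with NR6A1 and 187 and 87.1 reads with vector. The NR6A1 level was 0.291 of the vector level in clone 12 and 0.141 of it in clone 6, with log2 changes of -1.17 and -1.09.

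The Oog1 values are uncertain as those of 1 gene, because the mouse genome holds near copies of it. The longest Oog1 transcript aligned to Gm2042 at 99.6% identity over 2442 bases, to Gm10436 at 98.8% over 2451 bases, to C87977 at 95.4% over 2444 bases and to Gm13023 at 97.1% over 969 bases. Gm10436 stood at 0.381 and 0.0708 FPKM in the NR6A1 libraries of clone 12 and clone 6, against 1.23 and 0.760 FPKM in the vector libraries. Gm13023 stood at 0.0946 and 0.0154 FPKM with NR6A1 against 0.232 and 0.132 FPKM with vector, in the same order of clones. C87977 stood at 0.0718 and 0.00582 FPKM with NR6A1 against 0.225 and 0.123 FPKM with vector. All 3 copies in the table had the Oog1 pattern, with no overlap between viruses. How reads were shared among them was not tested, so the copies are not counted as separate observations. Of all symbols above 0 in a library, 10.6% were lower without overlap. Of the other oogenesin genes, Oog2 and Oog3 were at 0 in all libraries and Oog4 at 0.0415 and 0.0806 FPKM with NR6A1 against 0.105 and 0.0895 FPKM with vector.

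**Figure D3:**
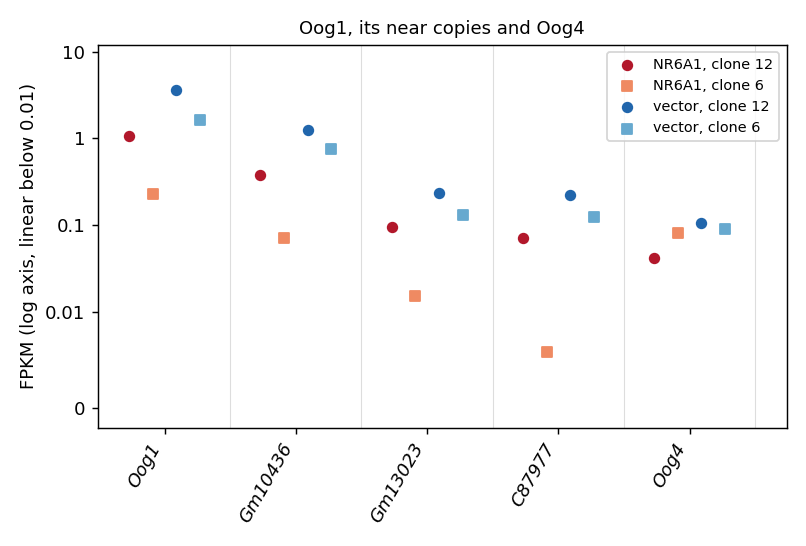
FPKM of Oog1, of 3 genes with near-identical transcripts and of Oog4, on a log axis that is linear below 0.01, with 1 point per library (circles clone 12, squares clone 6; red NR6A1, blue vector). In each of the 5 genes both NR6A1 points lie below both vector points, as in 10.6% of all symbols above 0 in a library. The nearest points of Oog4 are 0.0806 and 0.0895 FPKM. Oog1 and its 3 copies, which may share reads, are lowest in the NR6A1 library of clone 6.

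The other oocyte genes gave no common direction. Gdf9, a growth factor that oocytes send to their follicle cells, stood at 0.0910 and 0.206 FPKM in the NR6A1 libraries of clone 12 and clone 6, against 0.271 and 0.0768 FPKM in the vector libraries. It was lower with NR6A1 in clone 12 and higher in clone 6, on an estimated 2.94 to 9.83 reads. Within 1000 bases on the other strand lies the far more abundant Uqcrq, at 488 and 443 FPKM with NR6A1 against 489.6 and 459.8 FPKM with vector. The egg coat gene Zp3 stood at 0 and 0.0953 FPKM with NR6A1 against 0.0584 and 0.147 FPKM with vector, at most an estimated 3.96 reads. Figla and Nobox, transcription factors of the early oocyte, never passed 0.0279 FPKM.

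Of the 14 genes of germ cells and meiosis, Sycp3 and Sycp1 had the highest mean levels. Both belong to the synaptonemal complex, the scaffold that joins paired chromosomes. Sycp1, its central filament, stood at 0.363 and 0.190 FPKM in the NR6A1 libraries of clone 12 and clone 6, against 0.524 and 0.425 FPKM in the vector libraries. The groups did not overlap, on an estimated 12.9 to 38.7 reads. A pseudogene with 92.5% identity over 2560 bases, Sycp1-ps1, stood at 0.0572 and 0.102 FPKM with NR6A1 against 0.0281 and 0.0207 FPKM with vector, the opposite order.

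Sycp3, of the chromosome axis, stood at 0.781 and 0.762 FPKM in the NR6A1 libraries of clone 12 and clone 6, against 0.725 and 1.62 FPKM in the vector libraries. The vector library of clone 6 was high and the other 3 were close together. Sycp3 shares 660 exon bases with Chpt1, a phospholipid synthesis gene on the other strand, and no strand setting is given in the sources used here, so their reads may be mixed. Chpt1 stood at 19.99 and 28.3 FPKM with NR6A1 against 19.3 and 33.6 FPKM with vector, and it too was highest in the vector library of clone 6. Piwil2, an Argonaute protein of the piRNA pathway, stood at 0.124 and 0.150 FPKM with NR6A1 against 0.148 and 0.105 FPKM with vector, with overlapping groups. Dazl, a germ cell RNA-binding protein, Rec8, the meiotic cohesin, and Sycp2, Tex11, Tex14 and Tex19.1 stayed between 0 and 0.0922 FPKM.

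Spermatid genes were read in single libraries or by a handful of reads. Gapdhs, the sperm form of the glycolytic enzyme, stood at 0.131 and 0.347 FPKM in the NR6A1 libraries of clone 12 and clone 6, against 0.195 and 0.338 FPKM in the vector libraries, so the lines differed more than the viruses. Tmem147, a more abundant gene within 1000 bases on the same strand, stood at 71.3 and 89.96 FPKM with NR6A1 against 72.1 and 100.4 FPKM with vector, and was likewise higher in clone 6. Prm1, a protamine, was at 0.488 FPKM in the NR6A1 library of clone 12 and at 0 in the other 3 libraries. Tnp2, a transition protein, was at 0.180 FPKM in the NR6A1 library of clone 6 and at 0 in the rest. These transcripts are short, and the values stood for an estimated 2.58 and 1.31 reads. Acr, the sperm protease, and Pgk2, the sperm glycolytic kinase, stayed at or under 0.0313 FPKM.

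Of the pluripotency genes, Klf5 and Dnmt3b were expressed at a low level and Nanog at a trace level. Klf5, a Krüppel-like factor of embryonic stem cells that many adult epithelia and mesenchymal cells also use, stood at 4.47 and 1.58 FPKM in the NR6A1 libraries of clone 12 and clone 6, against 4.09 and 0.835 FPKM in the vector libraries. It was higher with NR6A1 within each line (log2 change 0.10 in clone 12 and 0.49 in clone 6), while the groups overlapped. Dnmt3b, a de novo DNA methyltransferase, stood at 2.12 and 2.61 FPKM with NR6A1 against 2.25 and 2.75 FPKM with vector, and its log2 changes were -0.061 and -0.055. The groups overlapped.

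Nanog, a homeobox factor of the inner cell mass, stood at 0.303 and 0.268 FPKM in the NR6A1 libraries of clone 12 and clone 6, against 0.542 and 0.437 FPKM in the vector libraries. The groups did not overlap, on an estimated 12.4 and 11.3 reads with NR6A1 and 24.8 and 21.2 reads with vector. The longest Nanog transcript aligned over at least 200 bases to transcripts of 52 other genes, one of them the pseudogene Nanog-ps1 at 97.6% identity, so these few reads are uncertain as Nanog. Dppa5a, an RNA-binding protein gene of embryonic stem cells, stood at 0.722 and 0.108 FPKM with NR6A1 against 0.943 and 0.141 FPKM with vector. These values stood for an estimated 6.02 and 0.931 reads with NR6A1 and 8.83 and 1.39 reads with vector. The Dppa5a level followed the line, and the gene too has near copies, one within a transcript of the more abundant gene Pigp (95.9% identity over 417 bases).

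Dppa2, a chromatin protein gene of the same cells, stood at 0.0280 and 0.0543 FPKM with NR6A1 against 0.0250 and 0.142 FPKM with vector, and 6 other genes have transcripts near-identical to it. The Nodal antagonist genes Lefty1 and Lefty2, which share 91.2% of 1159 bases, were at 0 in 5 of their 8 values. Lefty1 was at 0.104 FPKM in the NR6A1 library of clone 12, and Lefty2 at 0.0209 FPKM in the NR6A1 library of clone 6 and 0.136 FPKM in the vector library of clone 6.

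Over the 12 genes that averaged at least 0.1 FPKM, 6 were lower with NR6A1 in both lines (Mos, Oog1, Sycp1, Nanog, Dppa5a and Dnmt3b) and 1 was higher in both (Klf5). Over all 13449 symbols at that level, 29.2% were lower in both lines and 28.1% higher in both. Without overlap between the groups, 4 of the 12 were lower (Mos, Oog1, Sycp1 and Nanog), against 10.9% of all symbols, and none was higher, against 9.63%. Counting all 39 members above 0 in a library, 10 were lower in both lines (25.6%), against 25.6% of all symbols above 0. Higher in both lines were 2 (5.13%), against 24.6%. Without overlap, 7 of the 39 were lower (17.9%), against 10.6%, and 1 was higher (2.56%), against 9.71%. Since Mos and Oog1 were chosen for this difference, nothing is read from these shares. The median log2 change was -0.083 over the 12 genes and -0.0017 over all symbols at that level. In bulk RNA, fewer cells that express a gene and less RNA per cell cannot be told apart.

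**Figure D4:**
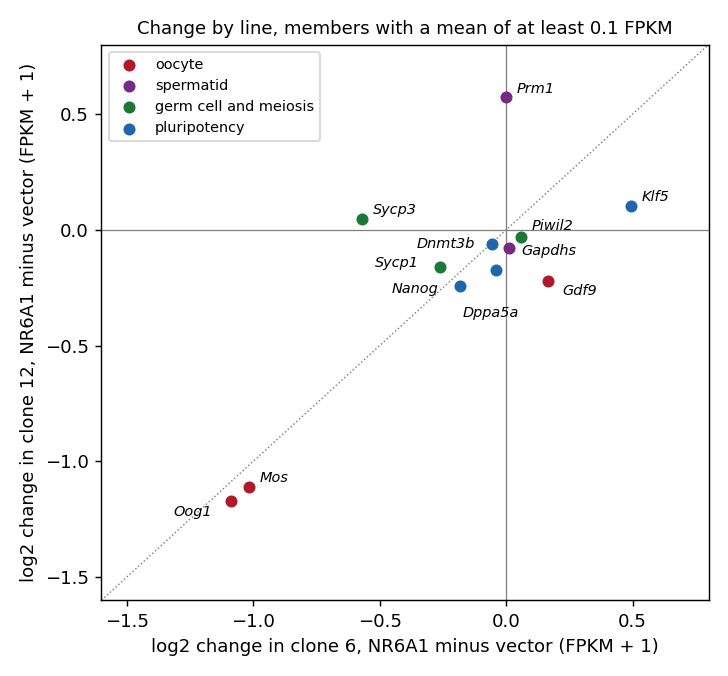
Log2 change of FPKM + 1, NR6A1 minus vector, in clone 6 (horizontal axis) and clone 12 (vertical axis) for the 12 genes averaging 0.1 FPKM or more, coloured by class, with the dotted line marking equal change. Mos and Oog1 lie near -1 on both axes, and the other 10 genes lie between -0.57 and 0.57 on each.

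Across the whole table, limma with clone as a block called 4 of 11346 genes for NR6A1 against vector (0.0353%) at an adjusted p under 0.05. Without short RNA genes it called 52 of 11148 genes (0.466%). With them, 962 of the 11346 genes had an unadjusted limma p under 0.05. No result of that test is given for the 49 genes, because Mos and Oog1 were chosen by this contrast.

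The difference between the lines was not used to choose the genes and was tested in the same fit. Klf5 was higher in clone 12 than in clone 6 by 1.28 ± 0.17 log2 units (SE, limma adjusted p = 0.0250), at 4.47 against 1.58 FPKM within the NR6A1 libraries and 4.09 against 0.835 FPKM within the vector libraries. Mos was lower in clone 12 by 0.69 log2 units (-0.69 ± 0.09, limma adjusted p = 0.0254), at 3.47 against 6.47 FPKM with NR6A1 and 8.66 against 14.1 FPKM with vector. The spread behind that p includes the gap between the lines in their change with NR6A1. Mos was chosen by that change, so its p is not independent of the choice and is not read as a result. Oog1 stood at 1.06 against 0.227 FPKM with NR6A1 and 3.65 against 1.61 FPKM with vector, a difference of 0.79 ± 0.17 log2 units (limma adjusted p = 0.0494). Oog1 was chosen by the same change, and it reached the filter of 1 FPKM only through clone 12, where it was high. That p is therefore not read as a result either. Dnmt3b did not pass (-0.21 ± 0.14, limma adjusted p = 0.323). With Oog1, 3 of the 4 genes tested passed, where 2490 of 11346 (21.9%) of all genes did, and nothing is read from that count.

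The calls between lines rest on few libraries. With 1 library left out, which leaves too few to keep virus in the model, Klf5 kept its call without the NR6A1 library of clone 6 (limma adjusted p = 0.0388) and lost it without the NR6A1 library of clone 12 (0.161), the vector library of clone 6 (0.0705) or that of clone 12 (0.195). Mos and Oog1 lost theirs without any 1 of the 4 libraries (limma adjusted p from 0.243 to 0.891 and from 0.236 to 0.856). The log2 difference of Mos was then -0.14 when the NR6A1 library of clone 12 was missing and -1.25 when the vector library of clone 12 was. That of Oog1 was 1.38 and 0.21 with those same libraries missing. With no filter on low values all 3 lost theirs (limma adjusted p = 0.0830, 0.0894 and 0.0805 for Klf5, Mos and Oog1), and with virus left out of the model Mos and Oog1 did (0.384 and 0.363). Oog1 also missed the threshold with another pseudocount or scaling (0.0541 to 0.0647).

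**Figure D5:**
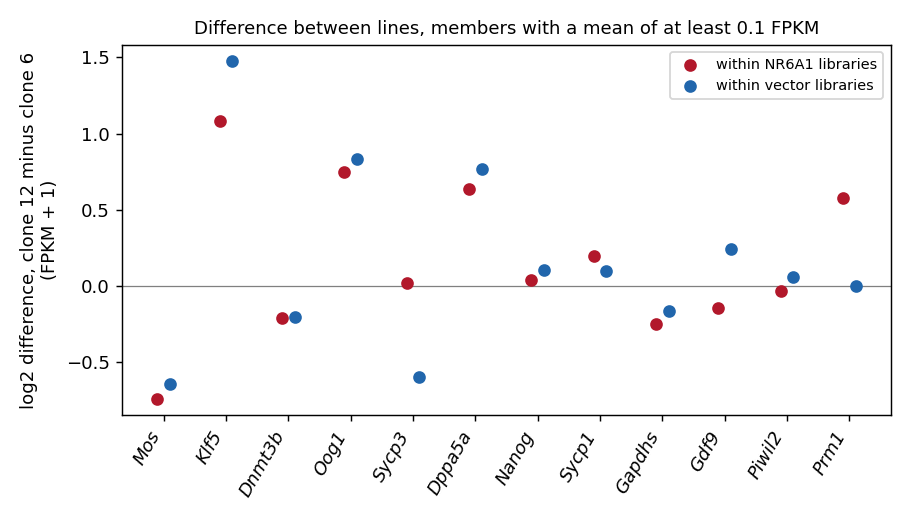
Difference in log2(FPKM + 1), clone 12 minus clone 6, within the NR6A1 libraries (red) and within the vector libraries (blue), for the 12 genes averaging 0.1 FPKM or more, ordered by mean level. Klf5, Oog1, Dppa5a, Sycp1 and Nanog are higher in clone 12 under both viruses, and Mos, Dnmt3b and Gapdhs lower under both.

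Of 31 further oocyte genes in the table, 7 were at 0 in every library, among them Dppa3 and Zar1, and 4 averaged at least 1 FPKM. Among those 4, the mitotic genes Ccnb1 and Bub1b and the DNA methyltransferase gene Dnmt1 serve dividing cells too. The other was Tle6, of the corepressor family. It stood at 3.08 and 9.36 FPKM in the NR6A1 libraries of clone 12 and clone 6, against 3.07 and 10.0 FPKM in the vector libraries. Limma called none of the 4 for NR6A1 against vector (0 at an unadjusted p under 0.05, against 962 of 11346 genes). Between lines, where 21.9% of all genes were called, it called Tle6 lower in clone 12, by -1.39 ± 0.10 log2 units, and Dnmt1 higher. For the genes of this list and the lists below, calls between lines with 1 library left out were not examined.

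Of 56 further meiosis and male germ cell genes in the table, 10 were at 0 in every library, among them Spo11, which cuts DNA to start recombination, and Ldhc of sperm. The filter was reached by 11. Limma called none of these for NR6A1 against vector (1 at an unadjusted p under 0.05, against 962 of 11346 genes). That gene was Insl6, of the insulin family, at 5.40 and 5.15 FPKM with NR6A1 against 3.69 and 3.84 FPKM with vector. The most abundant, Tdrd7, of RNA granules, stood at 38.5 and 17.9 FPKM in the NR6A1 libraries of clone 12 and clone 6, against 47.6 and 16.0 FPKM in the vector libraries. Between lines, Tdrd7 and Tdrkh, both tudor-domain genes, were called higher in clone 12 (1.29 ± 0.14 and 1.22 ± 0.09 log2 units), and Hspa2 and Odf2 lower. Of all genes, 21.9% were called between lines.

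Of 33 further pluripotency genes in the table, 6 were at 0 in every library, among them Esrrb and Nr5a2, and 8 reached the filter. Limma called none of the 8 for NR6A1 against vector (2 at an unadjusted p under 0.05, against 962 of 11346 genes). Klf4, a reprogramming factor also used by fibroblasts, stood at 19.3 and 10.6 FPKM in the NR6A1 libraries of clone 12 and clone 6, against 24.3 and 24.0 FPKM in the vector libraries. Klf2, a related factor and the other gene at an unadjusted p under 0.05, stood at 6.57 and 6.203 FPKM with NR6A1 against 4.17 and 4.12 FPKM with vector. Neither gene overlapped between viruses, Klf4 being lower and Klf2 higher with NR6A1. Over all genes tested, 10.7% were lower and 9.68% higher without overlap. Between lines, the growth factor-induced gene Myc and the zinc finger gene Zfp57, which guards imprints, were called higher in clone 12 (1.005 ± 0.11 and 0.93 ± 0.11 log2 units). Calls between lines covered 21.9% of all genes.

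The machinery known to keep germ line genes silent was expressed throughout. All 22 genes of that list averaged at least 1 FPKM, and the list includes the maintenance methyltransferase Dnmt1 and its partner Uhrf1, the E2f6 complex that marks meiotic genes, and the lysine methyltransferases Ehmt2 and Setdb1. Dnmt1 stood at 101.5 and 82.5 FPKM in the NR6A1 libraries of clone 12 and clone 6, against 102 and 71.8 FPKM in the vector libraries. Trim28, a scaffold of repressive complexes and the most abundant of the list, stood at 153 and 189 FPKM with NR6A1 against 138 and 184 FPKM with vector. Limma called none of the 22 for NR6A1 against vector (1 at an unadjusted p under 0.05, against 962 of 11346 genes). In both lines 5 were lower and 6 higher, against 29.4% and 28.9% of all genes tested. Their median log2 change was 0.030, against 0.00098 over all genes tested. The gene at that unadjusted p was the heterochromatin protein gene Cbx3, at 149 and 130.2 FPKM with NR6A1 against 167 and 175 FPKM with vector. Between lines it called 5 of the 22, where 21.9% of all genes were called: Dnmt1 and Tfdp2 higher in clone 12, and Hdac2, Ring1 and Trim28 lower.

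The corepressors through which NR6A1 is known to act were expressed as well. All 9 genes of the list averaged at least 1 FPKM, and the most abundant, Mbd3 of the NuRD complex, stood at 150.5 and 201 FPKM in the NR6A1 libraries of clone 12 and clone 6, against 138 and 150.3 FPKM in the vector libraries. Limma called none of the 9 for NR6A1 against vector (1 at an unadjusted p under 0.05, against 962 of 11346 genes). In both lines 5 were higher and none lower, where 28.9% of all genes tested were higher and 29.4% lower. Between lines limma called Mbd2, a reader of methylated DNA, higher in clone 12, where 21.9% of all genes were called in either direction. Of 16 genes listed as NR6A1 targets named in the literature, all but Dppa3 were among the 49. Only Mos, Oog1 and Dnmt3b averaged at least 1 FPKM, and 4 (Tdgf1, Prm2, Dppa3 and Nodal) were at 0 throughout. Mos and Oog1 are on this list too, but they entered the 49 for their change in these data. Their levels are therefore not read as a result about known targets.

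CpG content was read from the RefSeq promoters, 250 bases before to 50 after the start, as a description of sequence alone. The ratio of observed to expected CpG had a median of 0.700 for 12 matched genes of germ cells and meiosis and 0.155 for 6 matched spermatid genes, against 0.390 for all 27025 genes with a promoter. For oocyte and pluripotency genes fewer than 80% matched a promoter, so the comparison was void there.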

How the data were processed

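The authors deposited FPKM, 1 value per gene symbol and library, for 4 libraries. The tools TopHat 1.2.0 and Cufflinks 1.0.3 and the build mm9 are named per the submitters' processing notes. Neither the annotation nor a strand setting is given in the sources used here. Such values can hold fractions of a read where genes overlap or resemble each other.

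Depth was inferred from 1823 genes with 1 transcript length of at least 1500 bases in GENCODE M21, less 210 bases. From 50.1% to 52.7% of values under 10 reads lay within 0.1 of a whole read (20% by chance), so read numbers are estimates, taken at the longest transcript of each gene, and no count test was run.

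Log2(FPKM + 1) was tested two-sided by limma 3.58.1 (R 4.3.3) with its variance trend on, virus and clone in the model, and Benjamini-Hochberg adjustment over the 11346 genes averaging at least 1 FPKM. Pairing by clone is taken from the labels, since each line was infected with either virus. Clone differences correlated across genes between viruses with r = 0.628. Every gene reaching 0.1 FPKM in a library is given in full; of the other lists, genes were named from the 4 most abundant and those called, and genes at 0, single genes at an unadjusted p under 0.05 and examples of known roles were named after their values were seen. Transcripts were aligned with BLAST 2.17.0, and GENCODE and RefSeq belong to a later build than mm9. The genes and lists were chosen with earlier results of these data known. A gene of the corepressor list is not reported here.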

Additional observations from a re-analysis of the deposited data

Results flagged for a closer look

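Gdf9, Sycp3, Piwil2 and Gapdhs had opposite changes with NR6A1 in the 2 lines, each line giving 1 pair of libraries; the differences were not tested. As the log2 change in clone 12 minus that in clone 6, the gap was -0.38 for Gdf9, 0.62 for Sycp3, -0.089 for Piwil2 and -0.089 for Gapdhs. All 4 genes averaged under 1 FPKM, and Gdf9 rested on an estimated 2.94 to 9.83 reads a library.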

How the results depend on the processing

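Of the 11346 genes tested for NR6A1 against vector, 4 passed with the replicate block and 4 with no replicate block. The count was 7 with a pseudocount of 5, 2 with no filter, 38 with a robust prior and 52 without short RNA genes. With any 1 library left out, which also drops the clone block, limma called 0 genes (96 to 286 at an unadjusted p under 0.05). Between lines, 2490 genes passed; 1581 passed without a variance trend, 41 to 889 with 1 library and the virus term left out, and 0 with no filter (5360 at an unadjusted p under 0.05). Of the 4 members tested between lines, 3 passed, where 2490 of 11346 genes did. With no replicate block, where virus was left out of the model, 1 of the 4 passed, against 1993 of 11346 genes. With a filter at 5 FPKM, which only Mos met, 1 passed, against 2037 of 9294 genes. With no filter 0 of 39 members passed, as did 0 of 17887 genes. At an unadjusted limma p under 0.05 there were then 7 of 39 members, against 5360 of 17887 genes. The members lower in both lines numbered 10 of 39 when all above 0 were counted, where 25.6% of all symbols above 0 were lower. They numbered 3 of 4 at 1 FPKM, where 29.4% of all genes were lower. After upper quartile scaling they numbered 6, and no share over all genes was computed for that scaling. Taken alone, clone 6 turned the log2 change of Gdf9 to 0.16 and of Gapdhs to 0.0095, and clone 12 turned that of Sycp3 to 0.046 and of Piwil2 to -0.030. The log2 change of Oog1 ran from -2.04 with a pseudocount of 0.1 to -0.42 with 5, and that of Mos from -1.20 to -0.71. Except where stated, the cause was not tested. Depth limits every member under 0.1 FPKM, where 1 read decides the value.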
